A study of Mus musculus with 20 samples.

Results

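Mouse colon organoids in which BrafV600E had been activated, and which had then been selected for growth without niche factors, were compared with empty-vector organoids while both were kept in the complete medium, named ENSW in the labels. The members were taken by label: 3 arrays of selected organoids and 3 arrays of empty-vector organoids in ENSW medium, 6 of the 20 arrays of the series. All 6 cultures came from the proximal colon of male mice of about 40 days that carried the Cre-activable BrafV600E allele in heterozygous form (Braf+/LSL), were plated in Matrigel, and spent 48 hours in ENSW medium, which supplied EGF and, through conditioned media, Noggin, Wnt3a and R-spondin. The empty-vector (EV) organoids received the lentiviral backbone alone, so they carried the allele in its unactivated state. The selected organoids received lentiviral Cre and were afterwards grown in base medium, which lacks the stem-cell niche factors, before they were returned to ENSW medium. Unselected BrafV600E (BRAF) organoids, with 3 arrays, and wild-type organoids, with 1 array, were measured in ENSW medium as well, and every type was also measured in base medium. The labels date the organoids to 5m after induction and give neither the length of the selection nor whether lines 1, 2 and 3 came from separate mice. The p-values therefore measure only a spread between cultures, which may be technical. It was pooled over EV, BRAF and selected organoids in both media, with the ENSW and base arrays of a line taken as independent. No sorting by Cre activity and no cloning is recorded, and the cultures hold epithelium without the stroma of the crypt.

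BRAF is a kinase at the head of the RAF-MEK-ERK cascade, and the V600E substitution keeps it active without a growth factor signal. In the colon crypt, Wnt, R-spondin, EGF and antagonists of BMP hold stem cells at the base, and their daughters mature into absorptive colonocytes, mucus-secreting goblet cells, hormone-secreting enteroendocrine cells and tuft cells. Activating BRAF mutations are typical of serrated tumours of the colon, in which loss of the intestinal transcription factor CDX2 is common. The comparison asks how organoids that no longer depend on the niche factors differ from control organoids when these factors are present.

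Each level below is the log2 of the processed Cy3 signal minus the 75th percentile of the same array, and each difference is selected minus EV on that log2 scale, with the standard error (SE) of the limma fit. A gene was called at a limma adjusted p under 0.05, by Benjamini-Hochberg over 21424 genes. Of the spots of the 6 arrays, 59.9% to 64.0% were well above background, and none was saturated; the number of arrays limits the precision. Levels correlated at 0.951 to 0.988 (Pearson, across genes) between arrays of 1 type and at 0.918 to 0.949 between types. On the first principal component, which held 53.5% of the variance, the EV arrays lay at -93.4, -44.8 and -88.3 for lines 1 to 3 and the selected arrays at 79.8, 78.9 and 67.7, and selected line 1 stood apart on the second (-95.7, against 51.0 and 49.1). EV line 2 therefore lay nearest to the selected arrays, and it had the lowest levels of many differentiation genes below. No slide held both EV and selected arrays, and the effects of slide and of organoid type on these differences cannot be told apart. A fit that took the slide as a random block called 2314 genes. The probe of Braf is on chromosome 6 (39553758 to 39553817, mm9) and does not tell the alleles apart.

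In ENSW medium 2968 genes (13.9% of those tested) differed between selected and EV organoids, 1868 higher (8.72%) and 1100 lower (5.13%) in the selected organoids. Among called genes 268 fell and 115 rose by over 8-fold, and 57 fell and 8 rose by over 64-fold; the median called fall was -1.31 and the median called rise 0.89, while the median over all genes was 0.11. In 2943 of the called genes the 3 arrays of each type did not overlap; over all genes tested, called or not, the selected arrays lay wholly above the EV arrays in 25.9% and wholly below them in 15.8%. Of the genes that fell, 176 were not well above background on any selected array, and 149 of those that rose were not well above background on any EV array. The number of calls was 1135 without EV line 1, 1239 without EV line 3, 1819, 1514 and 1818 without selected lines 1, 2 and 3, and 2281 without EV line 2. It was 2967 with the culture as a random block, and 2665 of these were among the 2968 calls. It was 2453 with the 6 arrays fitted alone, and 1962 of these were among the 2968 calls. With normexp background correction in place of the scanner's processed signal it was 1927, of which 1075 were higher and 852 lower. That correction adds an offset and shrinks the differences of dim genes, for example that of Tff3 from -11.26 to -6.71, and the differences below carry that limit.

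**Figure D1:**
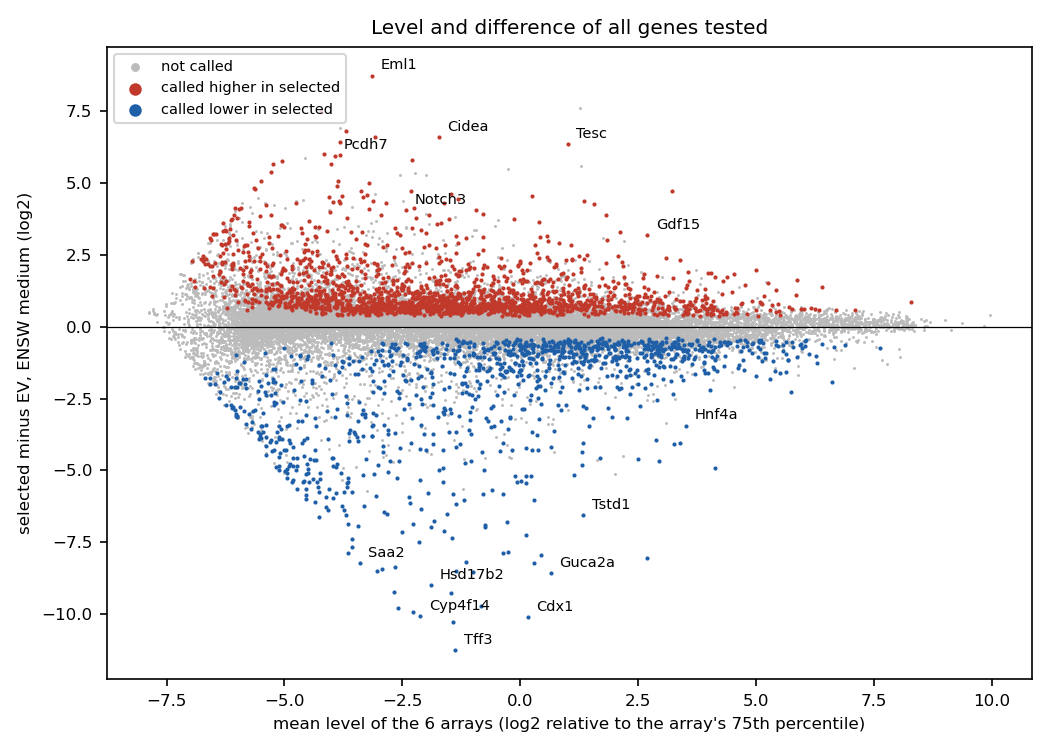
Mean level of the 6 arrays (x axis, log2, scaled to each array's 75th percentile) against selected minus EV in ENSW medium (y axis, log2) for the 21424 genes tested, with 1868 genes called higher in red and 1100 called lower in blue. Points far from 0 include genes not well above background in a group, 176 among the falls and 149 among the rises, whose size depends on the background correction.

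Braf itself was at -3.28, -3.44 and -3.41 in EV lines 1 to 3 and at -2.34, -1.72 and -2.20 in the selected lines. All selected arrays lay above all EV arrays, and the difference was 1.29 ± 0.24 (adjusted p = 0.0042). The only wild-type array in ENSW medium, left out of the fit, was at -2.16, within the range of the selected arrays and above the EV arrays. Which group departed from the wild-type level was not tested. Of the 12 measured genes of the RAF-MEK-ERK cascade, Braf was the only one called, where 8.72% of all genes were called higher and 5.13% lower.

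Among 20 measured genes that ERK signalling induces, 5 rose and none fell: Spry1, Spred1, Etv4, Etv1 and Spry4. Their list had a median difference of 0.81, against 0.11 over all genes. Spry1, a feedback inhibitor of receptor tyrosine kinase signalling, was at -0.88, -0.92 and -0.75 in EV organoids and at 1.28, 1.25 and 0.87 in selected organoids, a rise of 1.98 ± 0.23 (adjusted p = 1.9e-04). The arrays within each group lay far closer to each other than to the other group. Spred1, another inhibitor of the cascade, rose by 1.03 ± 0.18 (adjusted p = 0.0033), with EV arrays between -0.58 and -0.08 and selected arrays between 0.58 and 0.90. The ETS transcription factors Etv4 and Etv1 rose by 1.73 ± 0.32 and 3.45 ± 0.71 (adjusted p = 0.0040 and 0.0075). Spry4 was not well above background on any EV array and on 1 selected array, at least 2.89-fold higher (adjusted p = 0.011), and its call was lost without selected line 2 (adjusted p = 0.0501) and with normexp (0.479). Dusp6, the ERK phosphatase that is often read as a sign of pathway output, was not called: EV arrays were at 3.27, 3.44 and 3.38, selected arrays at 3.96, 4.83 and 4.68, and the adjusted p was 0.063. In 3 of 16 alternative settings it was called (limma adjusted p 0.020 to 0.045).

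The transcription factors that define intestinal epithelium were lower. Of 14 measured members of that list 5 fell and none rose, and the median was -1.60. Cdx1, a homeobox factor of the intestine, had the largest of these differences. It was at 5.46, 4.92 and 5.25 in EV organoids and at -3.46, -5.24 and -5.96 in selected organoids, a fall of -10.10 ± 1.91 (adjusted p = 0.0044). It was well above background on 2 of the 3 selected arrays, and every selected array lay far below every EV array. Cdx2, its partner, fell by much less: EV arrays were at 5.38, 5.39 and 5.11, selected arrays at 4.16, 4.42 and 3.88, and the difference was -1.14 ± 0.25 (adjusted p = 0.0094). Cdx2 stayed among the bright genes in every selected line.

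Hnf4a, a nuclear receptor that drives genes of absorptive cells, fell as well. It was at 5.29, 4.93 and 5.49 in EV organoids and at 0.30, 3.00 and 2.10 in selected organoids (-3.44 ± 0.62, adjusted p = 0.0035). The EV lines were alike and the selected lines spread more widely, with line 1 lowest for Hnf4a and line 3 for Cdx1. Klf5, an epithelial factor, had a difference of -0.70 ± 0.21 (adjusted p = 0.040), and its call was lost without any 1 of the 6 arrays (adjusted p 0.071 to 0.12). Isx, a homeobox repressor of vitamin A uptake genes, missed the threshold, at -1.65 (adjusted p = 0.065).

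Most colonocyte genes fell. Of 22 measured markers 16 fell and 1, Car4, was called higher; the median difference was -4.58, and -4.38 when genes not above background were set at their bounds. Guca2a, the precursor of the gut peptide guanylin, was at 5.73, 3.15 and 5.94 in EV organoids and at -3.85, -3.63 and -3.41 in selected organoids (-8.57 ± 0.81, adjusted p = 3.1e-05). Guca2b, the precursor of uroguanylin, was not well above background on any selected array and at least 171-fold lower there (adjusted p = 1.9e-05). Both peptides act on the guanylate cyclase receptor of the gut lining, and the selected lines were close together for both.

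Lypd8, a secreted protein that keeps flagellated bacteria from the colon surface, was at 5.37, 3.41 and 4.39 against -4.81, -3.72 and -2.95 (-8.22 ± 0.71, adjusted p = 1.2e-05). Car1, a carbonic anhydrase of the colon, was at 7.49, 4.87 and 7.79 against -1.97, 0.60 and -2.63 (-8.05 ± 0.91, adjusted p = 1.2e-04). Krt20, the keratin of mature surface cells, was at 3.92, 1.01 and 4.43 against -5.18, -3.28 and -2.54 (-6.79 ± 1.17, adjusted p = 0.0025). In all 3 genes EV line 2 was the lowest EV array, and it still lay above every selected array. Mep1a, a brush border protease, fell by 6.52 ± 1.23 on the log2 scale (adjusted p = 0.0044).

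The exceptions among the colonocyte markers were few. Car4, a membrane-bound carbonic anhydrase, was called at 0.72 ± 0.22 (adjusted p = 0.048), but the call was lost without any 1 of the 6 arrays (adjusted p 0.067 to 0.14), and with the mean of its 2 probes, which disagree in sign, the difference was -0.50. Aqp8, the water channel of the colon surface, was at 3.73, -2.96 and 2.55 in EV organoids and at -3.91, -3.67 and -2.92 in selected organoids, and was not called (-4.61 ± 1.63, adjusted p = 0.074): EV line 2 lay within the selected range. Leaving out any 1 array left 13 (without EV line 1 or 3) to 17 (without EV line 2) colonocyte falls. In bulk RNA of this kind, fewer cells of a type and less RNA per cell cannot be told apart.

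**Figure D2:**
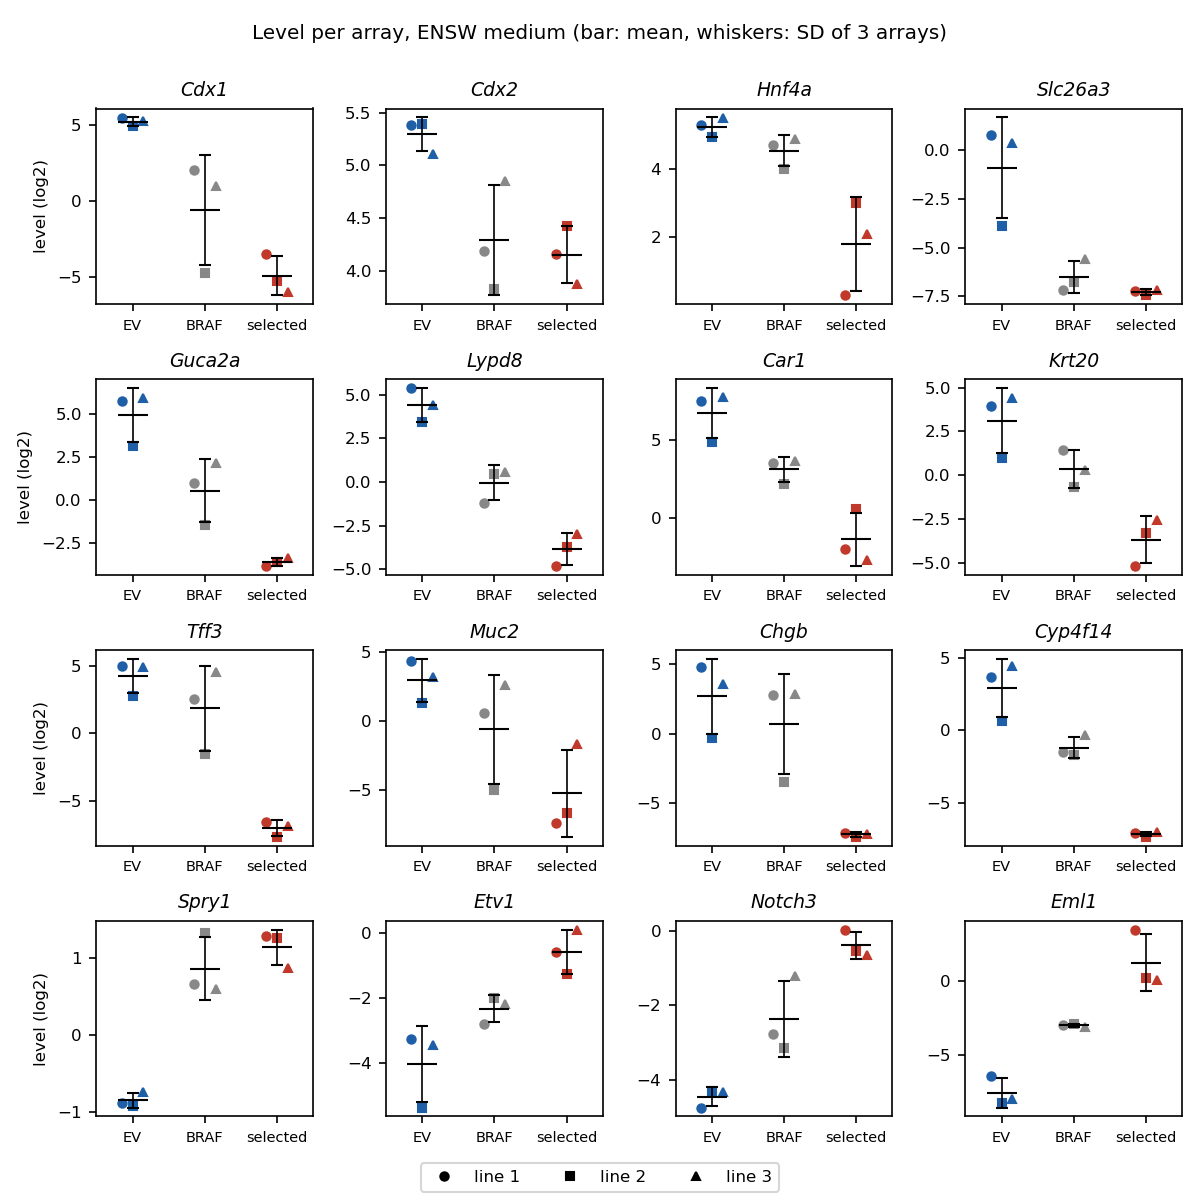
Level of 16 genes (y axes, log2, scaled to each array's 75th percentile) on each EV, BRAF and selected array in ENSW medium, with line 1, 2 and 3 as circle, square and triangle and bars for the mean and SD of 3 arrays. Selected arrays lie below the EV arrays for the first 12 genes and above them for Spry1, Etv1, Notch3 and Eml1; the mean of the BRAF arrays lies between the EV and selected means in each of the 16 panels.

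Slc26a3, the chloride-bicarbonate exchanger of the colon surface, was at 0.80, -3.88 and 0.40 in EV organoids and not well above background on any selected array, at least 39.7-fold lower (adjusted p = 0.0020). Cdhr2, a cadherin of the brush border, was at 5.16, 4.83 and 5.40 against 3.06, 2.84 and 2.88 (-2.20 ± 0.32, adjusted p = 9.0e-04). In both genes every EV array lay above every selected array. In the 250 bases upstream of the start (RefSeq, GRCm38.p6; both strands), an HNF4 core, CAAAGTCCA, was in 0 of 21 colonocyte genes with an entry and in 0.451% of 27025 genes, and the CDX letters TTTATNG were in 3 of 21 and in 11.3%. A match describes the letters and is no measure of binding.

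Goblet cell genes fell in 8 of 14 measured members, with no rise and a median of -5.15. Tff3, the trefoil peptide of goblet mucus, was at 5.02, 2.80 and 4.96 in EV organoids, -6.52, -7.65 and -6.84 in selected organoids, and not well above background on any selected array: it was at least 1409-fold lower (adjusted p = 1.0e-04). Zg16, a lectin of the mucus layer, fell by 8.50 ± 0.91 on the log2 scale (adjusted p = 9.2e-05), and Clca1, a mucus protease, by 7.10 ± 0.81 (adjusted p = 1.4e-04). Fcgbp, a structural partner of the mucus mucin, was at 4.19, 2.83 and 4.14 against -0.40, -0.34 and -3.53 (-5.14 ± 1.03, adjusted p = 0.0063).

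Muc2, the gel-forming mucin of the colon, was at 4.34, 1.28 and 3.21 against -7.40, -6.70 and -1.65. Its difference of -8.19 ± 1.97 was called (adjusted p = 0.016), with selected line 3 well above the other selected lines. Spink4, a goblet cell protease inhibitor, was at 6.37, 1.30 and 5.60 against -5.85, -3.43 and -1.30 (-7.95 ± 1.88, adjusted p = 0.015). Leaving out EV line 1 or 3 took Muc2 to an adjusted p of 0.0695 or 0.0572, and leaving out selected line 1 or 2 to 0.0611 or 0.0620. For Spink4 it was 0.0696, 0.0618 and 0.0581 when EV line 1, EV line 3 or selected line 1 was left out. Goblet falls numbered 4 without EV line 1 or EV line 3 and 5 without selected line 1 or 2. Atoh1 and Spdef, the transcription factors that specify and mature secretory cells, were not called (-5.32, adjusted p = 0.051, and -4.36, adjusted p = 0.11). In 6 of 16 alternative settings Atoh1 was called (limma adjusted p 0.011 to 0.046). Spdef was at -4.25, -2.02 and 1.85 in the selected lines, and line 3 again was highest.

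Of 15 measured enteroendocrine genes 5 fell and none rose: Chgb, Neurog3, Gcg, Insl5 and Chga. Chgb, a granin of hormone granules, was at 4.82, -0.32 and 3.57 in EV organoids and not well above background on any selected array, at least 475-fold lower (adjusted p = 0.0039). Neurog3, the factor that commits cells to this lineage, was at 1.22, -2.29 and 0.22 against -3.91, -4.77 and -4.35 (-4.06 ± 0.90, adjusted p = 0.011). EV line 2 held the least of both. The list counted 1 fall without EV line 1, 2 without EV line 3, with normexp or with the 6 arrays fitted alone, 3 without any 1 selected line and 9 without EV line 2. Chgb was the call that all these settings kept; Neurog3 was lost without EV line 1 (adjusted p = 0.0577), Gcg, which encodes proglucagon, without EV line 1 or 3 (0.0758 and 0.0723), and Insl5 and Chga without any array but EV line 2 (0.0516 to 0.111 and 0.0766 to 0.137). With normexp Gcg, Insl5 and Chga were at 0.0885, 0.221 and 0.0772. Of 11 tuft cell genes 1, Sh2d6, was called, at 0.37 ± 0.12 (adjusted p just under 0.05), and the call went without any 1 of the 6 arrays (adjusted p 0.0886 to 0.138). Over all genes 8.72% were called higher and 5.13% lower. Ang4, an antimicrobial ribonuclease of Paneth and goblet cells, fell by 4.34 ± 0.87 on the log2 scale (adjusted p = 0.0063) and was the only 1 of 6 measured Paneth cell genes called.

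Enzymes that act on drugs, steroids and lipids fell with the colonocyte genes. Of 28 measured genes of xenobiotic metabolism 14 fell, none rose, and the median was -2.90. Cyp4f14, a fatty acid hydroxylase of the cytochrome P450 family, was at 3.67, 0.66 and 4.45 in EV organoids and at -7.10, -7.34 and -7.03 in selected organoids, not well above background there and at least 559.8-fold lower (adjusted p = 7.9e-06). The glucuronosyltransferase Ugt2b34 fell by 8.54 ± 1.20 on the log2 scale, the epoxygenase Cyp2c55 by 7.86 ± 1.24 and the sulfotransferase Sult1b1 by 6.97 ± 1.08 (adjusted p = 6.9e-04, 0.0015 and 0.0013). The carboxylesterase Ces2a was at least 50.6-fold lower (adjusted p = 0.0018). The list counted 5 falls without EV line 1, 6 without EV line 3, 7 and 9 without selected lines 1 and 2, 11 without selected line 3 and 14 without EV line 2; it counted 8 with the slide as a random block and 7 with the 6 arrays fitted alone.

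Outside the lists, 4 genes that were not well above background on any selected array had the smallest p-values of all named falls. Hsd17b2, which inactivates sex steroids, was at 2.82, 1.91 and 3.08 in EV organoids and at -7.09, -5.83 and -6.24 in selected organoids, at least 397.6-fold lower (adjusted p = 2.4e-09). Clec2h, a lectin-like ligand of gut epithelium, was at least 285-fold lower (adjusted p = 4.0e-07). The tetraspanin Tspan6 was at least 8.19-fold lower, with EV arrays at -3.21, -2.81 and -3.49 (adjusted p = 4.0e-07), and the predicted gene Gm5485 at least 89.7-fold lower (adjusted p = 4.0e-07). Of the largest falls, the brush border protease Mep1b was at 3.12, 2.81 and 3.56 against -4.79, -7.65 and -5.82 (-9.25 ± 0.76, adjusted p = 7.9e-06) and the carboxylesterase Ces2b at 2.92, -1.43 and 3.30 against -7.03, -5.17 and -5.51 (-7.50 ± 1.10, adjusted p = 9.0e-04). Tstd1, a sulfur transferase, was at 4.93, 4.37 and 4.53 against -2.32, -2.72 and -0.78 (-6.55 ± 0.43, adjusted p = 1.9e-06), and Cstf2t, a polyadenylation factor, at 0.33, 0.00 and 0.44 against -3.06, -2.87 and -2.60 (-3.10 ± 0.21, adjusted p = 1.9e-06). In these genes even EV line 2 stood clear of every selected array.

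Secreted defence proteins were lower. Of 15 measured antimicrobial and acute phase genes 8 fell and 2, Nos2 and Lcn2, rose, with a median of -2.85. The serum amyloid genes fell together: Saa1 was at 1.00, 1.19 and 2.32 against -1.38, -1.10 and -1.57 (-2.85 ± 0.39, adjusted p = 5.0e-04), and Saa2 and Saa3 were not well above background on any selected array, at least 121-fold and 43.6-fold lower (adjusted p = 3.6e-06 and 2.3e-04). These genes are near-identical copies in part, and the array does not tell how far their probes cross-hybridise. S100a9, a subunit of calprotectin, fell by 4.66 ± 0.83 on the log2 scale (adjusted p = 0.0033). Falls numbered 5 without EV line 1 or selected line 3, and Nos2 (0.63) was lost without EV line 1 (adjusted p = 0.0653) and Lcn2 (1.25) without any array but EV line 2 (adjusted p 0.0566 to 0.161).

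Antigen presentation changed in single genes, where 8.72% of all genes were called higher and 5.13% lower. Of 16 class I pathway genes 3 fell: Psmb10, a subunit of the immunoproteasome, was at 4.85, 4.24 and 4.14 against 1.99, 2.32 and 1.94 (-2.33 ± 0.26, adjusted p = 1.1e-04), with Erap1 (-1.71) and Calr (-0.59). Erap1 was lost without EV line 1 or selected line 1 (adjusted p = 0.0697 and 0.0572) and with normexp (0.305), and Calr without any array but selected line 3 (adjusted p 0.0681 to 0.169). Psmb10 was the call that held without each array. Of 7 class II pathway genes, Ctss, the protease cathepsin S, fell and H2-DMb1, a chaperone of peptide loading, rose. Ctss was at 3.69, 1.54 and 2.86 against -4.68, -3.89 and -4.02 (-6.89 ± 0.54, adjusted p = 6.2e-06), and H2-DMb1 at -4.59, -5.42 and -7.14 against -1.63, 0.56 and -1.03 (5.01 ± 0.86, adjusted p = 0.0025). None of 26 interferon-induced genes was called by limma, with a median of -0.75 that becomes -0.59 with bounds; 3 of the 26 had an unadjusted p under 0.05.

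Junction genes fell in 6 of 15 measured members, by less than the differentiation genes (median -1.03). Cgn, the tight junction protein cingulin, was at 3.82, 3.91 and 3.82 in EV organoids and at 2.21, 2.58 and 2.73 in selected organoids (-1.35 ± 0.21, adjusted p = 0.0013). The scaffold Tjp3 fell by 1.20 ± 0.21 on the log2 scale and the claudin Cldn3 by 1.16 ± 0.26 (adjusted p = 0.0027 and 0.010). Cldn15, a claudin that forms a sodium pore, was at 3.16, 1.57 and 3.14 against -1.29, -3.04 and -3.95 (-5.39 ± 1.21, adjusted p = 0.011); without EV line 1 its adjusted p was 0.0507. Cldn7 fell by 1.15 ± 0.32 (adjusted p = 0.031) and its adjusted p was 0.102 and 0.0990 when EV line 1 or 3 was left out and 0.109 and 0.0845 when selected line 1 or 2 was. The list counted 3 falls without EV line 1 and 4 without EV line 3 or selected line 1.

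All 10 epithelial markers were above background on every EV and selected array. Their median difference was -0.98, and in 9 of them the selected arrays lay wholly below the EV arrays, as they did in 15.8% of all genes. Their summed level was 10.4 to 10.5 in EV and 9.09 to 9.98 in selected organoids, and Cdx2 and Cldn7 were the 2 called, both lower. With quantile normalization or the authors' deposited values 4 were called lower, and with the line number as a replicate block 6. The adhesion protein Epcam was at 4.85, 4.30 and 4.66 against 3.18, 3.83 and 4.08 (adjusted p = 0.060), E-cadherin, Cdh1, at 4.31, 4.10 and 4.14 against 3.13, 3.80 and 3.38 (adjusted p = 0.058), and the keratins Krt8 and Krt19 differed by -1.30 (adjusted p = 0.069) and -1.14 (adjusted p = 0.070). These 4 genes missed the threshold. Integrin genes changed in opposite directions: Itga2, the collagen receptor subunit, was at -1.86, -2.18 and -2.60 against -7.22, -7.13 and -5.18 (at least 13.0-fold lower, adjusted p = 6.9e-04), Itgb6 fell by 1.68 ± 0.40 (adjusted p = 0.014), and Itga5, of the fibronectin receptor, rose by 1.83 ± 0.31 (adjusted p = 0.0025). They were 3 of 16 integrin and laminin genes, where 8.72% of all genes were called higher and 5.13% lower. Itgb6 was lost without EV line 1 or selected line 1 (adjusted p = 0.0574 and 0.0576), and Itgb6 and Itga5 with normexp (adjusted p = 0.116 and 0.136).

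RNA levels of many genes of cholesterol synthesis were lower in the selected organoids, and synthesis itself was not measured. Epithelial cells make cholesterol from acetyl-CoA by the mevalonate pathway, whose genes are induced by the factor SREBP2 when sterols are short. Of 22 measured genes of synthesis, uptake and their control 14 fell, none rose, and the median was -0.84. Hmgcs1, the synthase that makes the HMG-CoA of this pathway, was at 5.56, 5.06 and 5.37 in EV organoids and at 3.52, 4.14 and 4.01 in selected organoids (-1.44 ± 0.24, adjusted p = 0.0021). Fdft1, squalene synthase, was at 2.83, 2.52 and 2.89 against 1.51, 1.83 and 1.77 (-1.05 ± 0.16, adjusted p = 0.0015). Both genes had selected line 1 lowest and no overlap.

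Hsd17b7, a sterol reductase, fell by 1.44 ± 0.28 on the log2 scale (adjusted p = 0.0048) and Mvd, the decarboxylase of mevalonate diphosphate, by 1.16 ± 0.24 (adjusted p = 0.0081). Fdps, farnesyl diphosphate synthase, was not called (-0.65, adjusted p = 0.10). The falls numbered 5 without EV line 1, 6 without EV line 3, 7 without selected line 1 or 3, 10 without EV line 2 and 12 without selected line 2, and 8 with the 6 arrays fitted alone; Hmgcs1, Fdft1, Hsd17b7 and Mvd were called in each setting.

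The promoters of the called members with a CCAAT match and the smallest adjusted p are shown because the genes of this pathway moved together. Each is the 250 bases upstream of the start (RefSeq, GRCm38.p6, 5′ to 3′ on the strand of the gene): Hmgcs1 at chr13:119690101-119690350 on the plus strand, Hsd17b7 at chr1:169969206-169969455 on the minus strand and Mvd at chr8:122443423-122443672 on the minus strand. Capitals mark the letters CCAAT, which bind the factor NF-Y and read ATTGG where they lie on the opposite strand, and in Hmgcs1 also a sterol regulatory element, TCACNCCAC.
Hmgcs1: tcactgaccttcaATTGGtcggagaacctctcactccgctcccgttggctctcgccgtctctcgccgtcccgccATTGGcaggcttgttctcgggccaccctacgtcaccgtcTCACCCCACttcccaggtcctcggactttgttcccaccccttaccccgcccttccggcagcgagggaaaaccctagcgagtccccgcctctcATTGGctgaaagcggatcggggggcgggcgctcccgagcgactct
Hsd17b7: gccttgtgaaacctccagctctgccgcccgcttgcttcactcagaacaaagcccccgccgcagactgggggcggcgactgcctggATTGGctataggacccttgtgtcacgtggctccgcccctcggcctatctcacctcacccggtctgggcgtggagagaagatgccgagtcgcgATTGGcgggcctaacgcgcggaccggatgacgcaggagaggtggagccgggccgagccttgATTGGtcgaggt
Mvd: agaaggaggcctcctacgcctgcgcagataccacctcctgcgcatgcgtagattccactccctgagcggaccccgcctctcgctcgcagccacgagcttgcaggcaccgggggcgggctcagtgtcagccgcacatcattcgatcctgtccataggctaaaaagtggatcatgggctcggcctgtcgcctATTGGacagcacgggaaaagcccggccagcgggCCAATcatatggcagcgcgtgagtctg
Of the 22 genes 14 had an entry. The CCAAT letters, searched on both strands and not overlapping the other motif in the windows shown, were in 13 of these 14 and in 37.5% of 27025 genes. The sterol element was in 1 of 14, Hmgcs1, and in 1.22% of all genes. In the colonocyte list CCAAT was in 6 of 21.

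**Figure D3:**
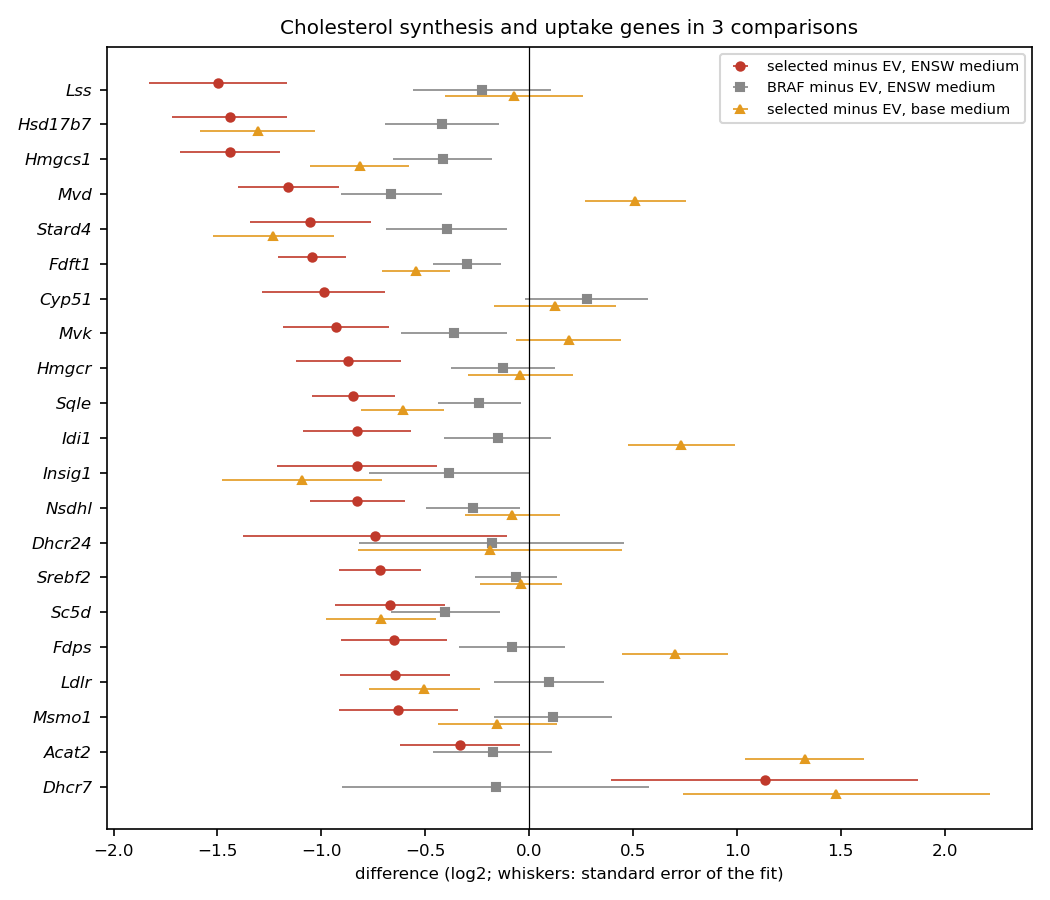
Differences (x axis, log2, whiskers the SE of the fit) of 21 genes of cholesterol synthesis, uptake and control in 3 comparisons that share arrays: selected minus EV in ENSW medium, BRAF minus EV in ENSW medium and selected minus EV in base medium. Most selected minus EV differences in ENSW medium lie left of 0, that of Hmgcs1 at -1.44.

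Among the rises, genes with low levels in EV organoids led. Eml1, a microtubule-associated protein, was at 3.44, 0.17 and 0.08 in selected organoids on the brighter of a pair of probes, which was not well above background on the EV arrays while the other probe was. With the mean of both probes its rise was 5.84 (adjusted p = 0.0014), and with normexp 4.15 (adjusted p = 0.0066). Cidea, a lipid droplet protein, rose from -4.89, -4.66 and -5.55 to 0.53, 0.92 and 3.27 (6.61 ± 1.33, adjusted p = 0.0063), and Tesc, a calcium-binding regulator of sodium-proton exchange, from -1.54, -3.13 and -1.86 to 4.19, 3.36 and 5.00 (6.36 ± 0.95, adjusted p = 9.9e-04). No EV array reached a selected array in Cidea or Tesc. The protocadherin Pcdh7 was not well above background on any EV array and at least 62.2-fold higher in selected organoids (adjusted p = 6.0e-05). The other large rises lay between 4.57 and 6.45: the plexin-domain protein Plxdc2 at 6.45 (lost with normexp, adjusted p = 0.0534), the kinase anchor Pakap at 5.82 (3.70 with the mean of both probes, adjusted p = 0.0065), Alox5ap, which activates leukotriene synthesis, at 4.73, carboxypeptidase E, Cpe, at 4.72, the ectonucleotidase Entpd3 at 4.62, the PI3K inhibitor Pik3ip1 at 4.58 and the adhesion receptor Adgrl3 at 4.57. Their adjusted p-values lay between 3.9e-04 and 0.015, and Pik3ip1 was lost without selected line 1 or 2 (adjusted p = 0.0558 and 0.0522).

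Genes induced by p53 rose. Of 22 measured genes of p53 response and senescence 10 rose and 1, Lmnb1, fell, with a median of 0.87. Eda2r, a receptor of the TNF family, was at -1.98, -2.23 and -2.10 against -0.33, -0.10 and 0.33 (2.07 ± 0.20, adjusted p = 5.0e-05), and Phlda3, an inhibitor of AKT, at 2.44, 3.20 and 3.53 against 4.77, 4.88 and 5.12 (1.87 ± 0.27, adjusted p = 8.9e-04). Zmat3, an RNA-binding target of p53, rose by 1.46 ± 0.22 (adjusted p = 0.0012). Gdf15, a secreted stress protein, was at 1.47, 0.52 and 1.33 against 3.62, 5.26 and 3.98 (3.18 ± 0.50, adjusted p = 0.0014). Each of the 4 separated the groups completely.

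Cdkn2a, the locus of p16 and p19ARF, was at 2.09, 2.17 and 2.76 in EV organoids and at 3.62, 2.16 and 3.83 in selected organoids, so selected line 2 was at the EV level and the difference of 0.86 ± 0.48 was not called (adjusted p = 0.24). Lmnb1, the nuclear lamin that declines in senescent cells, fell by 0.97 ± 0.29 (adjusted p = 0.039) and was lost without any 1 array (adjusted p 0.0765 to 0.117). The rises of this list numbered 5 without EV line 1 or selected line 3, and 7 to 9 without any other array.

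Developmental signalling genes changed singly, where 8.72% of all genes were called higher and 5.13% lower. Notch3, a Notch receptor that is low in normal colon epithelium, was at -4.75, -4.30 and -4.32 against 0.03, -0.55 and -0.66 (4.07 ± 0.53, adjusted p = 3.8e-04). It was 1 of 3 calls among 13 Notch genes, with the ligand Jag2 higher (1.19) and the target Hes5 lower (-1.14). Jag2 was lost without any array but EV line 2 (adjusted p 0.0567 to 0.172) and Hes5 without EV line 1 or 3 or selected line 1 or 2 (0.0507 to 0.0884) and with normexp (0.231). Id2, an inhibitor of helix-loop-helix factors induced by BMP, was at -1.69, -1.20 and -0.55 against 1.72, 2.34 and 1.87 (3.13 ± 0.45, adjusted p = 8.4e-04). With the ligand Bmp4 (2.77, adjusted p = 0.040) it made 2 of 13 BMP genes, and Bmp4 was lost without any array but selected line 2 (adjusted p 0.0730 to 0.135). Of 18 genes of fetal-like and YAP-driven epithelium, Anxa1 (1.40, adjusted p = 0.011) and Spp1 (at least 89.7-fold higher, adjusted p = 0.046) were called. That count is near the share of rises among all genes. Anxa1 was lost without EV line 1 (adjusted p = 0.0505) and Spp1, at -5.32, 3.29 and 1.19 in the selected lines, without any array but selected line 1 (adjusted p 0.0830 to 0.170).

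Stem cell genes varied widely among the selected lines. None of 14 measured was called by limma, none had an unadjusted p under 0.05, and the median was 0.01. Lgr5, the R-spondin receptor that marks crypt stem cells, was at 0.79, -1.95 and 0.75 in EV organoids and at 1.55, -7.64 and -1.70 in selected organoids: selected line 1 was above every EV array and line 2 near the bottom of the range (-2.46 ± 2.43, adjusted p = 0.53). Smoc2, another marker of these cells, had the same order in the selected lines, 3.99, -7.67 and -3.33, against 2.55, -0.14 and 2.96 (adjusted p = 0.38). Axin2, a direct Wnt target, was at -2.32, -2.34 and -1.99 against 0.73, -2.50 and -2.90 (adjusted p = 0.71), again with line 1 alone high.

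Of 17 Wnt targets 1, Cd44, an adhesion receptor, was called (1.53 ± 0.43, adjusted p = 0.031), which is near the share of rises among all genes, and its adjusted p was 0.0928 and 0.123 when EV line 1 or 3 was left out and 0.0929 and 0.103 when selected line 2 or 3 was. Sfrp4, a secreted Wnt antagonist, was not well above background on enough arrays to be tested. The 26 measured proliferation genes had a median of -0.34. In 12 of them the selected arrays lay wholly below the EV arrays (15.8% over all genes) and in 3 wholly above (25.9%). Only 1 of the 26, the mitotic kinase Aurkb, was called (1.78 ± 0.47, adjusted p = 0.023), where 8.72% of all genes were called higher. Without EV line 1 or 2 its adjusted p was 0.0551 or 0.0790, without selected line 1 or 2 it was 0.0690 or 0.0734, and with normexp it was 0.315. Mki67, the antigen of cycling cells, was at 4.14, 4.51 and 3.83 against 3.32, 3.68 and 3.67 (-0.60 ± 0.65, adjusted p = 0.57), and Mcm7, a replicative helicase subunit, at 3.76, 3.85 and 4.02 against 3.38, 3.25 and 3.51 (adjusted p = 0.36). Both were lower on every selected array, by less than the threshold needs.

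**Figure D4:**
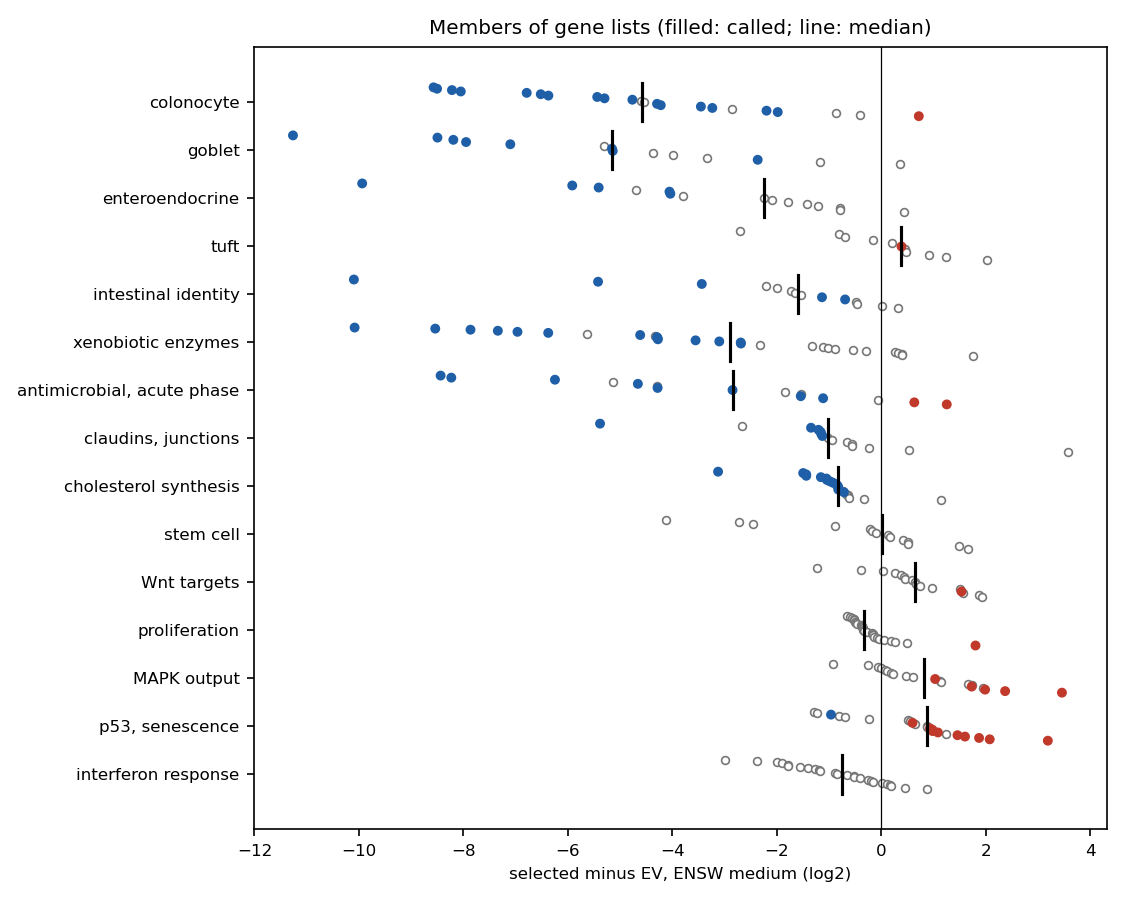
Selected minus EV in ENSW medium (x axis, log2) for each measured member of 15 gene lists, with called genes filled (blue lower, red higher), uncalled genes open, and a line at the median of the list. The colonocyte and goblet medians lie at -4.58 and -5.15, the stem cell median at 0.01 and the ERK output median at 0.81.

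Markers of cells that an epithelial culture should lack were in part above background. Their calls stand beside 8.72% of all genes called higher and 5.13% lower. Of 9 measured immune genes Cd79a (0.77) and Csf1r (0.66) were called higher, and of 3 endothelial genes Kdr (0.60); these calls were lost without EV line 1 or 3, and also without selected line 1 (Cd79a), selected line 1 or 2 (Csf1r) and selected line 2 (Kdr) (adjusted p 0.0514 to 0.0689), and with the mean of probes Csf1r and Kdr were not called (0.237 and 0.204). Of 5 stromal genes Thy1 and Pdgfrb fell, at least 19.1-fold and 4.24-fold (adjusted p = 8.0e-04 and 4.9e-04), which with normexp were at an adjusted p of 0.0502 and 0.339. The part of these cells in the differences above was not tested. The summed level was 4.57 to 4.74 in EV and 4.28 to 4.83 in selected organoids for the immune list, 1.5 to 1.7 and 2.08 to 2.35 for the endothelial list, and -1.19 to -0.25 and -1.42 to -1.23 for the stromal list. Measured members had been kept for being well above background on 3 or more of the 18 arrays, which favours high counts here. They were 9 of 13 immune, 3 of 7 endothelial and 5 of 11 stromal genes on the array. Of the measured members, 8 to 9 of 9 immune genes were above background on each EV and selected array. For the endothelial list it was 3 of 3 in EV and 2 to 3 in selected organoids, and for the stromal list 4 to 5 of 5 and 2. Other markers had probes but were too dim to be kept: Col1a1, Col3a1, Pdgfra, Dcn and Lum of fibroblasts, Cdh5 and Tek of endothelium, and Cd3g, Lyz2 and Tyrobp of immune cells. Each was well above background on at most 1 of the 18 arrays.

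Unselected BRAF organoids, which had not gone through the selection, were set beside the EV and the selected organoids. EV and BRAF arrays shared no slide, and the effects of slide and of organoid type on BRAF minus EV cannot be told apart. BRAF minus EV shares the EV arrays with selected minus EV, and selected minus BRAF shares the selected arrays, so each set of values is given side by side. In ENSW medium 1356 genes differed between BRAF and EV organoids (6.33%), 1053 higher (4.92%) and 303 lower (1.41%), and 130 between selected and BRAF organoids (0.607%), 33 higher (0.154%) and 97 lower (0.453%). The 130 became 85, 65 and 47 without selected lines 1, 2 and 3, 50 and 80 without BRAF lines 1 and 2, and 118 without BRAF line 3. They became 83 with normexp. The 1356 became 397 and 496 without EV lines 1 and 3, 401 and 860 without BRAF lines 2 and 3, 1176 without EV line 2 and 916 without BRAF line 1. Leaving out arrays in these comparisons was chosen after the data had been seen.

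Several genes were lower in selected than in BRAF organoids whichever array was left out. Hsd17b2 was at 1.01, 0.74 and 0.99 in BRAF lines 1 to 3, at least 123.2-fold above the selected organoids (adjusted p = 4.2e-08) and 1.69 below EV on the log2 scale (adjusted p = 0.0085). Tstd1 was at 5.17, 4.04 and 4.14 in BRAF organoids, a selected minus BRAF difference of -6.39 ± 0.43 (adjusted p = 6.8e-06) beside a BRAF minus EV difference of -0.16 (adjusted p = 0.88). Itga2 was at least 10.1-fold lower in selected than in BRAF organoids (adjusted p = 0.0076), beside a BRAF minus EV difference of -0.36 (adjusted p = 0.78). For Tstd1 and Itga2 the BRAF arrays lay near the EV arrays and apart from the selected arrays. Of other genes not well above background on any selected array, Tff3 was at least 267-fold lower than in BRAF organoids (adjusted p = 0.0032), Clec2h at least 35.6-fold (4.7e-05), and Cyp4f14 at least 32.4-fold (0.0032); Tspan6 was lower too (1.6e-05). Cstf2t, above background on every array, differed by -2.71 (adjusted p = 1.6e-05), and Mep1b, above background on 1 selected array, was also lower (adjusted p = 5.7e-04). Higher in selected than in BRAF organoids were Rdh10, a retinol dehydrogenase (2.11, adjusted p = 0.0033), Pcyt1b, of phosphatidylcholine synthesis (2.47, 0.0054, above background on 1 BRAF array), D630045J12Rik (at least 3.63-fold, 0.0024) and Ankrd13d (1.23, 0.0017); of these D630045J12Rik lost its call against EV with normexp (adjusted p = 0.187). Against EV they rose by 2.37 (Rdh10), 2.03 (Ankrd13d), at least 11-fold (Pcyt1b) and at least 4.76-fold (D630045J12Rik), with adjusted p of 5.7e-06 to 2.8e-04.

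For 9 genes the selected minus BRAF call was lost when 1 array was left out, for each of several arrays. Guca2a was at 0.97, -1.47 and 2.11 in BRAF organoids (selected minus BRAF -4.17, adjusted p = 0.033), and its call was lost without any array but BRAF line 2 (up to 0.132). Calls of Guca2b, Lypd8, Car1, Cdhr2, Saa2, Ugt2b34, Alox5ap and Pcdh7 were likewise lost without 3 to 5 of the 6 arrays (up to 0.0855 to 0.163). For Cdx1 the BRAF arrays were at 2.01, -4.70 and 0.98: line 2 was at the level of the selected lines and the others between the groups, and neither test was called (selected minus BRAF adjusted p = 0.43, BRAF minus EV adjusted p = 0.087).

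Other genes also differed from EV in BRAF organoids. Spry1 differed between BRAF and EV organoids by 1.71 (adjusted p = 0.0014) and between selected and BRAF organoids by 0.28 (adjusted p = 0.76). Eda2r had 1.69 (adjusted p = 6.8e-04) and 0.38 (adjusted p = 0.56), and Psmb10 -2.18 (adjusted p = 6.2e-04) and -0.14 (adjusted p = 0.92). A p that misses the threshold does not show equal levels. The 22 cholesterol genes had a median of -0.20 between BRAF and EV organoids and of -0.66 between selected and BRAF organoids. Selected line 3 and BRAF line 1 were on the same slide, and between these arrays the difference was -5.94 for Tstd1.

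In base medium, to which the selected organoids had been adapted, 10319 genes differed between selected and EV organoids (48.2%; 24.9% higher and 23.2% lower). Leaving out 1 array gave 8605 to 9985. For 5196 genes (24.3%) the selected minus EV difference itself changed between the media (limma interaction, adjusted p under 0.05), 2954 upward (13.8%) and 2242 downward (10.5%). With the culture as a random block the balance turned, with 4122 upward and 5131 downward. The EV organoids differed more between the media than the selected organoids for the genes given here. Mki67 was at a mean of -0.86 ± 1.83 (SD, n = 3) in EV organoids in base medium, against 3.83 to 4.51 in ENSW medium, while selected organoids in base medium were at 4.34, 3.65 and 3.81. Its difference changed by 5.39 ± 0.92 (adjusted p = 0.0013), and all 26 proliferation genes were called higher in selected organoids in base medium.

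Differentiation genes kept their low levels in the selected organoids of both media. Guca2a was at -3.86, -3.43 and -3.17 in selected organoids in base medium, the level they had in ENSW medium, while EV organoids were at 9.14 ± 0.27 (SD, n = 3); the difference was -12.63 in base medium and changed by -4.06 ± 1.14 (adjusted p = 0.019). Cdhr2 behaved alike, with selected arrays at 2.81, 2.68 and 2.81 and EV arrays at 7.17 ± 0.63 (SD, n = 3). Cdx1 differed by -9.75 in base medium (adjusted p = 7.5e-04) and Hnf4a by -3.74 (adjusted p = 2.0e-04), and no change of these differences between media was called (adjusted p = 0.95 and 0.85). In the cholesterol list, 14 falls in ENSW medium stood beside 7 falls and 3 rises in base medium, in comparisons on different arrays. Hmgcs1 differed by -0.82 there (adjusted p = 0.012, and 0.0630 without EV line 1), Mvd by 0.51 (adjusted p = 0.097).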

How the data were processed

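Total RNA was hybridised to 1-colour Agilent arrays. Per the file headers, the authors' scanner software (Feature Extraction 10.7.3.1, protocol GE1_107_Sep09) made the background-subtracted Cy3 intensity values used here, with probe positions on mm9. A table of processed log2 values that the authors deposited served as an alternative; per the submitters' processing notes limma was used, and the scale and centring of that table are not given in the sources used here.

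Each intensity was taken as log2 minus the array's 75th percentile. Spots called outliers were left out, and 26843 probes stayed that passed the background criterion on 3 or more of 18 arrays, with the brightest probe per gene. limma 3.58.1 (R 4.3.3; lmFit, eBayes) was fitted to 18 arrays in 6 groups, with Benjamini-Hochberg adjustment over 21424 genes, of which 16094 had a symbol; the wild-type arrays stayed out. The fit was also run on simulated arrays drawn independently of each other, which cannot test the effects of shared cultures or slides. Gene names came through RefSeq accessions (26684 probes), symbols (2533) or older symbols (474), and otherwise from the files (9738). For "at least" folds, a gene without a spot well above background in a group was set there, on each array, at the lowest signal of any probe well above background or its own if higher.

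Named genes were the 12 largest rises and falls above background in both groups, up to 4 per direction above background in 1 group, up to 4 called and 2 uncalled members of each of 42 lists, up to 4 per direction that also differed from BRAF or between media, and a few set genes; other list members were added. The members and lists were chosen with earlier results of these data known. Some list members that enter the counts are not reported here. Alternatives were normexp, quantile normalization, the deposited values, other filters, the mean of probes, blocks for line, culture and slide, the 6 arrays alone, and leaving out each array. Promoter letters were searched in RefSeq sequences (GRCm38.p6). Tables used pandas 2.3.3 and numpy 2.4.6 in Python 3.11.15, and figures matplotlib 3.10.9.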

Additional observations from a re-analysis of the deposited data

Results flagged for a closer look

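The selected minus EV difference was itself tested between the media (base minus ENSW medium, limma interaction, adjusted p under 0.05). Of the 121 genes named in the text 32 differed by it, beside 24.3% of all genes tested. Some of the 32 were named because they differed between media. Racgap1, Plk4 and Ska2, which act in cell division and are named only here, were not called in ENSW medium (adjusted p = 0.39, 0.33 and 0.17). Ces2a, Saa2, Thy1, Clec2h, Hsd17b2 and Gm5485 were not well above background on any selected array in ENSW medium, so the size of their change is limited by the background. Upward were Mki67 (5.39), Racgap1 (4.51), Plk4 (4.45), Neurog3 (4.06), Mcm7 (3.68), Ska2 (3.47), Lmnb1 (3.19), Cd44 (2.42), Etv4 (1.93), Jag2 (1.73), Mvd (1.67), Eda2r (1.495), Fdps (1.35) and Phlda3 (1.22). Downward were Ces2a (-5.16), Ces2b (-4.82), Saa2 (-4.45), Thy1 (-4.44), Zg16 (-4.19), Saa1 (-4.09), Guca2a (-4.06), Clec2h (-3.62), Mep1b (-3.50), Clca1 (-3.38), Ctss (-3.33), Hsd17b2 (-3.26), Cdhr2 (-2.21), Gm5485 (-1.87), Cgn (-1.12), Csf1r (-0.87), Ankrd13d (-0.66) and Sh2d6 (-0.62).

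Some of these calls rested on single arrays, by an alternative chosen after the data had been seen. Ces2a reached an adjusted p of 0.0588 without EV line 3 in base medium. Jag2 lost its call without EV line 2 or 3 in ENSW medium, EV line 3 in base medium or selected line 3 in ENSW medium (up to 0.0637). Leaving out EV line 3 in base medium ended the call of Mep1b, Zg16, Neurog3, Phlda3, Ces2b, Ankrd13d, Clca1 and Gm5485 as well, and each of these lost it without 5 or more other arrays too (highest adjusted p 0.0700, 0.0761, 0.0802, 0.0889, 0.104, 0.104, 0.114 and 0.118).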

How the results depend on the processing

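Of 121 genes named, 102 were called in selected minus EV in ENSW medium, and 68 of them kept the call in every setting. The call was lost by 29 without 1 array and by 28 in another setting. Of the genes not called, 7 gained a call in some setting. Calls in that comparison fell to 1927 with normexp and ranged from 1135 to 2281 when 1 array was left out. Calls of selected minus BRAF were 83 with normexp and 47 to 118 without 1 array, and those of BRAF minus EV 397 to 1176; leaving arrays out of these was chosen after seeing the data. The test between media gave 9253 with the culture as a random block (4122 upward, 5131 downward). The direction turned for Car4 with the mean of probes (-0.50), and without 1 array Axin2 ranged from -0.48 to 1.33 and Lgr5 from -4.53 to 0.062. The cause was not tested. With the line number as a replicate block, selected minus EV had 3716 calls and selected minus BRAF 241. Same-numbered EV and selected arrays had correlations of -0.08, 0.09 and 0.04 of their deviations, and the highest of the pairs with unlike numbers was 0.11.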

Other observations

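The median difference of the genes of a chromosome, each selected line minus the EV mean in ENSW medium, was 0.39 on chromosome 3 (817 genes) in selected line 3, 0.19 in line 2 and 0.11 in line 1; in base medium the same lines were at 0.40, 0.19 and 0.16. The median selected minus EV difference over all genes was 0.11 in ENSW medium, and in selected line 2 chromosomes 12 and X were higher, at 0.25 and 0.24. On chromosome 5 (1048 genes) selected line 2 was at -0.16 in ENSW and -0.18 in base medium. On chromosome 4 (1093 genes) selected line 3 was at -0.13 in ENSW and -0.11 in base medium, and line 1 at 0.12 and 0.18. On chromosome 19 (584 genes) EV line 3 was at 0.24 relative to the EV mean. These medians were singled out after the values were seen, and no test was made.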
